A study of Mus musculus with 48 samples.

Results

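Gene expression in 6 livers was compared with that in 6 spleens, all sampled at time 2, on 12 of the 48 Affymetrix MG-U74Av2 arrays of a mouse series that also covered heart and lung. The arrays were chosen by their titles, which give tissue, strain and time, and no measured value entered the choice. The livers came from 3 A/J and 3 C57BL/6J males and the spleens likewise. A/J and C57BL/6J are inbred strains, and per the labels the animals were littermates aged 3 months whose tissue gave about 20 micrograms of total RNA for each array. The labels give neither a treatment nor the meaning of the times, and the sources used here do not say whether a mouse gave both organs. P-values of liver minus spleen measure the spread between these animals that tissue and a common strain shift leave over. That spread also holds any dependence of the difference on strain, which widens the standard error (SE) of genes with such a dependence. The scan file names put all arrays of time 2 in 1 set, so no difference of array run separates these livers from these spleens. Each of 12422 probe sets (short probes that together read a transcript) was tested with strain as a block, and 8251 genes were each read by the probe set with the highest mean level.

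The liver is built mainly of hepatocytes, epithelial cells that make most plasma proteins, dispose of nitrogen as urea, make bile acids and glucose, and break down foreign compounds. The spleen filters blood through a red pulp rich in macrophages and holds lymphocytes in a white pulp, and in mice it also makes red cells and platelets. No aim of the study is stated, and the grouping itself poses the question of which transcripts separate these organs. In whole tissue, fewer cells of a type cannot be told apart from less of a transcript in each cell.

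The organs separated clearly. Across all probe sets, Pearson's r lay between 0.983 and 0.996 for 15 pairs of livers, between 0.960 and 0.994 for 15 pairs of spleens, and between 0.831 and 0.863 for 36 pairs of a liver and a spleen. The deposited values, called levels here, are log2 values, and the median of an array was 8.87 to 8.94. The highest level of an array lay between 14.5 and 14.7. The defining markers matched the labels. Alb (albumin) read 14.46, 14.43 and 14.43 in A/J livers and 14.39, 14.41 and 14.41 in C57BL/6J livers, close to the top of the scale. Cd79a, a signalling subunit of the B cell receptor, read 13.13, 13.04 and 12.83 in A/J spleens and 14.01, 14.06 and 14.08 in C57BL/6J spleens, against at most 10.27 in any liver. The marker Tlx1 was not analysed here.

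Some arrays stood apart. Spleens carried liver transcripts to differing degrees: Alb read 13.27, 12.38 and 11.91 in A/J spleens and 8.42, 8.47 and 10.31 in C57BL/6J spleens, against 8.27 to 9.73 in the 12 hearts and lungs of time 2. The mean level of 23 hepatocyte plasma protein genes was 9.76, 9.21 and 9.17 in A/J spleens and 8.49, 8.35 and 8.94 in C57BL/6J spleens, against 8.41 to 8.71 in hearts and lungs. All A/J spleens and C57BL/6J spleen 3 thus lay above hearts and lungs, and all livers lay at 13.08 to 13.30. Digestive enzymes of the exocrine pancreas, which lies against the spleen, marked 3 arrays. C57BL/6J spleen 3 is among them and so carried transcripts of both kinds. The mean of 12 such genes was 12.17 in C57BL/6J liver 2, 12.37 in C57BL/6J spleen 1 and 11.19 in C57BL/6J spleen 3, against 8.83 to 9.45 in the other 9 arrays. Prss2, a trypsinogen, read 13.70 in that liver and 13.92 and 12.64 in those spleens, and between 7.32 and 9.80 in the other 9 arrays. None of the 12 pancreas genes passed the test between the organs. Counts over all probe sets and a few list results are given with and without these arrays below. Most list results are given with them only.

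**Figure D1:**
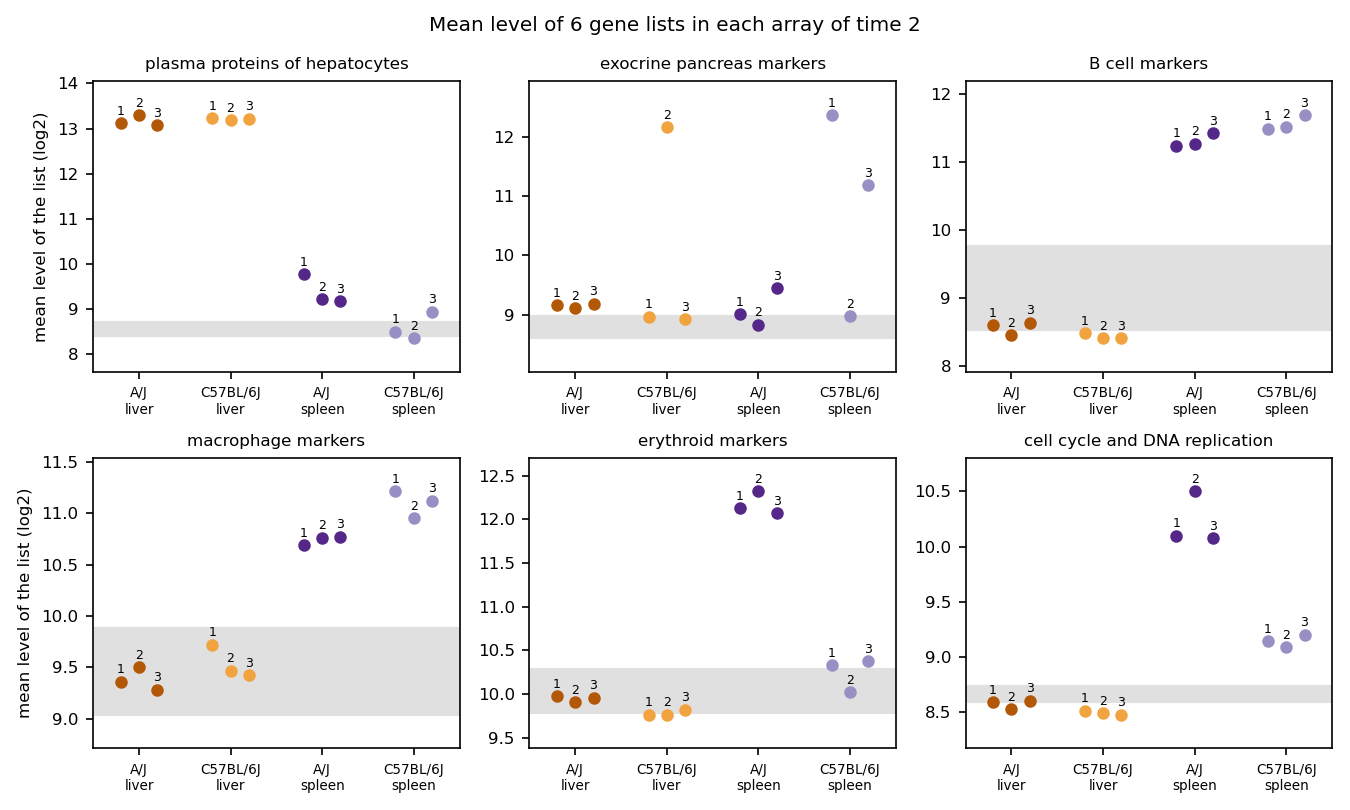
Mean log2 level of 6 gene lists in each array of time 2 (vertical axis), by strain and tissue; each point is 1 array with its replicate number, and the grey band spans the 12 hearts and lungs of time 2. Liver and spleen separate for plasma proteins, B cells and macrophages, pancreas genes stand out in C57BL/6J liver 2 and C57BL/6J spleens 1 and 3, and erythroid and cell cycle genes are highest in the 3 A/J spleens.

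Differences between the organs were many and often large. Liver was higher for 3279 probe sets (26.4% of those tested) and lower for 3549 (28.6%) by limma with a Benjamini-Hochberg adjusted p below 0.05. At least 2-fold (1 log2 unit), 888 probe sets were higher in liver (7.15%) and 1125 lower (9.06%). At least 8-fold (3 log2 units), the balance turned: 246 probe sets were higher in liver (1.98%) and 132 lower (1.06%). The 6 livers and 6 spleens did not overlap for 1991 probe sets higher in liver (16.0%) and 2544 lower (20.5%). Counted by gene, 27.2% of the 8251 genes were higher in liver and 31.6% lower, and the median difference over all genes was 0.0141 log2 units. These shares are the background for each gene list below. Without the 4 spleens that carried liver transcripts, which removes all A/J spleens and so leaves 2 C57BL/6J spleens against the C57BL/6J livers, 2292 probe sets were higher in liver (18.5%) and 3468 lower (27.9%). Without the 3 arrays with pancreas transcripts the counts were 2866 (23.1%) and 3367 (27.1%).

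**Figure D2:**
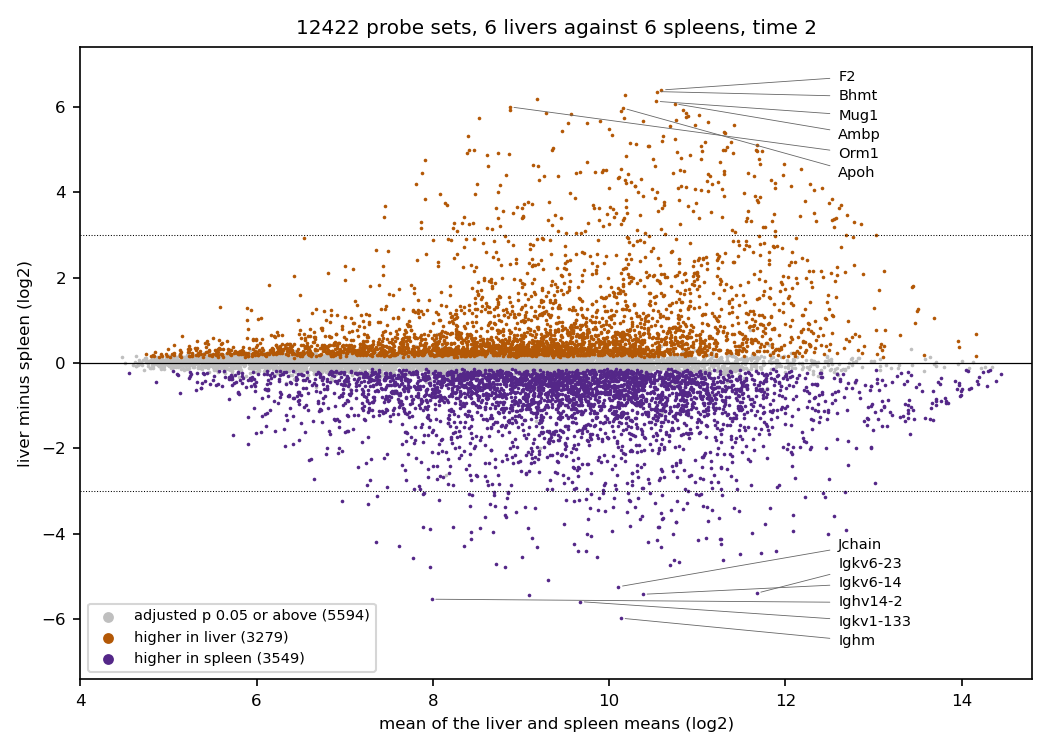
Liver minus spleen (log2, vertical axis) against the mean of the liver and spleen means (log2, horizontal axis) for 12422 probe sets. Dotted lines lie at 3 log2 units. Named are the 6 genes that differed most in each direction among those without overlap of livers and spleens. Orange points (3279) were higher in liver and purple points (3549) lower, and the largest differences of the named genes are 6.39 and -5.97.

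Single genes were ranked only among called probe sets whose livers and spleens did not overlap. The 12 with the largest difference in favour of liver were F2, Bhmt, Mug1, Ambp, Orm1, Apoh, Mug2, Cfi, Slc27a2, Cyp2d10, Cyp3a25 and C4bp. These genes differed by 6.39 down to 5.83 log2 units. They encode mostly secreted plasma proteins, with cytochromes P450, a methyltransferase and a fatty acid transporter among them. F2, prothrombin, had a lowest, median and highest level of 13.55, 13.82 and 13.89 in livers, against 6.75, 7.39 and 8.27 in spleens. The difference was 6.39 ± 0.18 (SE), an 84.1-fold higher level in liver (limma adjusted p = 1.94e-12). Bhmt, which remethylates homocysteine to methionine with betaine, had 13.19, 13.80 and 14.08 in livers, against 6.62, 7.497 and 8.27 in spleens, a difference of 6.36 ± 0.26. A second Bhmt probe set differed by 0.27. Ambp, the precursor of alpha-1-microglobulin and bikunin, had 13.63, 13.79 and 13.85 in livers, against 6.79, 7.63 and 9.28 in spleens (6.07 ± 0.27). The liver values were close together in F2 and Ambp, while Bhmt read 13.39, 13.66 and 13.19 in A/J livers and 14.08, 13.96 and 14.08 in C57BL/6J livers. In all 3 genes the range was wider among spleens than among livers, with the highest spleen value in A/J spleen 1. Orm1, the acid glycoprotein orosomucoid, had 11.40, 11.84 and 12.36 in livers, against 5.68, 5.83 and 6.11 in spleens (6.00 ± 0.15). Here 4 of 6 spleens lay within the range of hearts and lungs, and the 2 above that range were A/J spleens. C4bp, an inhibitor of the classical complement pathway, had 12.26, 12.49 and 12.68 in livers, against 6.21, 6.59 and 7.27 in spleens, with the smallest SE of the 12 (5.83 ± 0.09). Mug1 and Mug2 are murinoglobulins, close relatives read by probe sets whose names mark them as shared by a family, so their values may not be separate. Other probe sets read below carry the same mark, among them those of Cyp4a10, Ugt2b5, Plg, Ighg3 and Xpo7. Values of such probe sets may not be of the named gene alone.

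**Figure D3:**
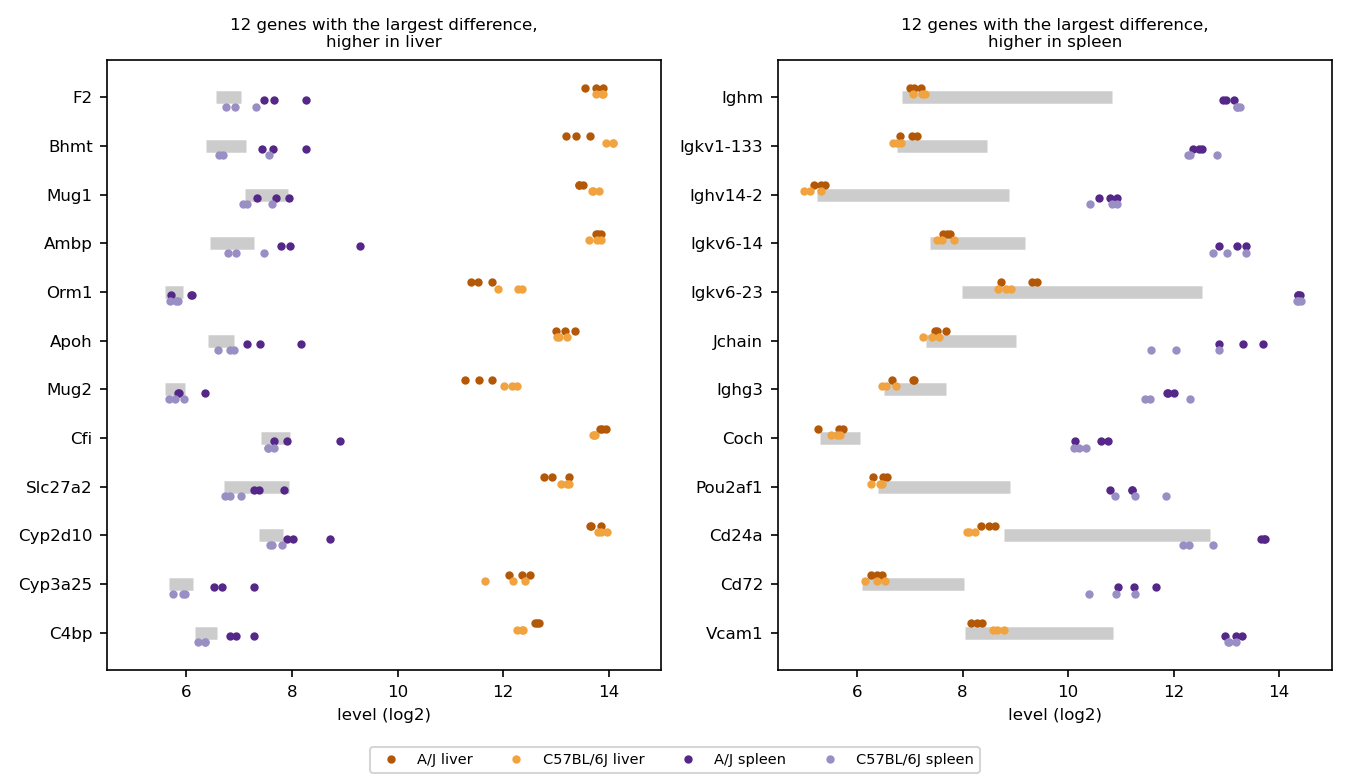
Log2 level (horizontal axis) in each array of time 2 for the 12 genes with the largest difference in each direction, higher in liver (left) and higher in spleen (right); points are arrays coloured by strain and tissue, and grey bars span the 12 hearts and lungs of time 2. Only genes without overlap between livers and spleens could be picked, so their separation follows from the choice. The A/J spleens often lie above the C57BL/6J spleens among the liver genes.

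Secreted plasma proteins were higher in liver throughout. All 23 measured plasma protein genes of hepatocytes were higher in liver, with a median difference of 4.18 log2 units against 0.0141 over all genes, and the median was 5.11 without the 4 spleens that carried liver transcripts. Hamp, the iron hormone hepcidin, had 12.38, 12.94 and 13.04 in livers, against 7.27, 7.60 and 8.26 in spleens (5.15 ± 0.16). Vtn, vitronectin, which binds cells and the complement membrane complex, differed by 5.41 ± 0.10, and the protease inhibitor Pzp by 5.79 ± 0.19. Ttr, the carrier of thyroxine and retinol-binding protein, had 12.06, 12.31 and 12.86 in livers, against 8.09, 8.18 and 8.49 in spleens (4.14 ± 0.10). Alb itself differed by 3.63 ± 0.56, less than most of its list, and its level in spleens ran up to 13.27. In the 3 C57BL/6J livers against their spleens the difference was 5.34, and in A/J it was 1.92.

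Blood clotting and complement genes followed the same course. All 18 coagulation factors were higher in liver, at a median of 4.07. Fgb and Fgg, the beta and gamma chains of fibrinogen, differed by 5.63 ± 0.16 and 5.43 ± 0.21. Fgb had 12.30, 12.36 and 12.38 in livers, against 6.24, 6.56 and 7.59 in spleens. Plg (plasminogen, which dissolves clots) differed by 4.998 ± 0.32, and Serpinc1 (antithrombin) by 4.98 ± 0.16. Of 13 complement components, 12 were higher in liver and none lower, at a median of 2.89. They span the lytic pathway (C9, 5.12 ± 0.13, and C8g, 4.01 ± 0.09) and its brake Cfi, the protease that cleaves C3b (5.93 ± 0.17). Of 13 acute phase proteins, which the liver secretes in inflammation, 12 were higher in liver at a median of 2.26. Apcs, serum amyloid P, had 10.68, 11.88 and 13.15 in livers, against 7.16, 7.43 and 7.80 in spleens (4.48 ± 0.26). Its livers fell apart by strain, at 13.08, 13.15 and 12.93 in A/J and 10.68, 10.825 and 10.83 in C57BL/6J. The haem binder Hpx (4.38 ± 0.12), the copper carrier Cp (4.26 ± 0.16) and the haemoglobin binder Hp (3.74 ± 0.10) followed.

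Start-site sequences of a few of these genes are shown because their letters hold a word that was more frequent upstream of the genes highest in liver. HNF1 is a homeodomain factor of hepatocytes, and its binding word was searched as GTTAATNAT, on both strands, from 250 bases before to 50 after each start in RefSeq promoters of build GRCm38.p6. It occurred in 15 of 167 genes with a promoter among those at least 3 log2 units higher in liver (8.98%), in 0 of 60 at least 3 units lower, in 0.639% of 6576 genes on the array and in 0.94% of 27025 genes in the table. The HNF4 word CAAAGTCCA occurred in 3.59%, 0%, 0.563% and 0.555% of the same sets. A match is a description of the letters, not a bound site. The 150 bases before the start follow, 5' to 3' on the strand of the gene, with the match in capitals. They are those of Alb (chr5:90460720-90460869, plus strand, match from base -32 to -24 before the start), Fga (chr3:83026003-83026152, plus strand, -46 to -38), C4bp (chr1:130661619-130661768, minus strand, -64 to -56) and Hc (chr2:35061413-35061562, minus strand, -77 to -69) for the HNF1 word, and of Cyp8b1 (chr9:121916306-121916455, minus strand, -67 to -59) for the HNF4 word.
Alb: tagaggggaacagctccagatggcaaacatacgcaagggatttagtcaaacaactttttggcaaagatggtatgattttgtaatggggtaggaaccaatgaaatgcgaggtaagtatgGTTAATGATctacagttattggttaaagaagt
Fga: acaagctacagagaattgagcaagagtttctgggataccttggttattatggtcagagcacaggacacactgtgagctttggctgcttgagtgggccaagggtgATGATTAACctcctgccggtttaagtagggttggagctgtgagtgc
C4bp: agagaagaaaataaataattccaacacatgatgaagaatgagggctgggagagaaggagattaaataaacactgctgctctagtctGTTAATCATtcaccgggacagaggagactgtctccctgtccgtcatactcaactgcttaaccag
Hc: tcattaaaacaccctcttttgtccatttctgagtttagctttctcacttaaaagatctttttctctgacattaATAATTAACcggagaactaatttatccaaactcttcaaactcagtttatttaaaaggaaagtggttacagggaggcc
Cyp8b1: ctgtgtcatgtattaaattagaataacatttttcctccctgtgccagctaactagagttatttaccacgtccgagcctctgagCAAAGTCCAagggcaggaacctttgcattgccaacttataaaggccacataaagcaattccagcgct
In Fga and Hc the word reads on the opposite strand, so the capitals spell its reverse complement.

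Lipid transport and bile acid genes were higher in liver with few exceptions. Of 13 apolipoprotein and lipoprotein enzyme genes, 12 were higher at a median of 4.15, led by Apob, the scaffold of very low density lipoprotein. Apob had 10.90, 11.04 and 11.26 in livers, against 5.39, 5.65 and 6.15 in spleens (5.32 ± 0.12). Lcat, which esterifies cholesterol on lipoproteins, differed by 4.86 ± 0.08 and Apoa5, which promotes triglyceride clearance, by 4.29 ± 0.09. All 10 bile acid genes were higher, at a median of 2.97. Slc10a1, the transporter that takes bile acids up from blood, had 12.59, 13.11 and 13.29 in livers, against 6.78, 7.31 and 7.95 in spleens (5.73 ± 0.14). Cyp8b1, the sterol hydroxylase that sets the share of cholic acid and whose start region is printed above, had 13.34, 13.60 and 13.90 in livers, against 9.96, 10.08 and 10.32 in spleens (3.49 ± 0.09). All 19 genes of fatty acid oxidation and ketone synthesis were higher, at a median of 2.3, from Ehhadh of the peroxisome (4.44 ± 0.19) and the thiolase Acaa1b (3.91 ± 0.11) to smaller differences. Cholesterol synthesis and uptake showed the smallest shift of the metabolic lists: 12 of 14 genes were higher at a median of 1.21, with Sc5d (3.69 ± 0.12), Idi1 (2.56 ± 0.15) and Hmgcs1 (2.40 ± 0.12) ahead. At time 1 the median of that list was 0.365.

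Nitrogen disposal and glucose output were higher in liver too. Of 22 urea cycle and amino acid genes, 20 were higher in liver at a median of 3.42. Otc, the mitochondrial enzyme that makes citrulline, had 12.05, 12.65 and 12.84 in livers, against 6.68, 6.82 and 7.52 in spleens (5.63 ± 0.15). Arg1, the arginase that releases urea, differed by 5.81 ± 0.24 and Cps1, which starts the cycle, by 4.96 ± 0.17. Gnmt, a methyltransferase that consumes S-adenosylmethionine, differed by 5.17 ± 0.23. Of 8 genes of gluconeogenesis and hepatic sugar metabolism, 7 were higher at a median of 3.31. The glucose transporter Slc2a2 (4.99 ± 0.14) and the gluconeogenic enzymes Pck1 (4.78 ± 0.12), Fbp1 (4.78 ± 0.12) and G6pc (3.77 ± 0.11) led. Pck1 had 12.17, 13.01 and 13.28 in livers, against 7.97, 8.10 and 8.25 in spleens.

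Detoxification genes held the exception. Of 27 cytochromes P450, 25 were higher in liver and 1 lower, at a median of 2.74. Cyp4a10, a fatty acid hydroxylase, had 10.61, 11.51 and 11.81 in livers, against 5.16, 5.75 and 5.89 in spleens (5.73 ± 0.18). Cyp3a11, a drug oxidase, had 13.83, 13.86 and 13.91 in livers, against 7.001, 9.09 and 11.29 in spleens (4.91 ± 0.47), the spread of which again lay among spleens. Cyp2d10 differed by 5.86 by one probe set and 5.07 by the other. The gene that ran the other way was Cyp1b1, a P450 best known outside the liver. It had 8.11, 8.32 and 8.50 in livers, against 10.23, 10.99 and 11.53 in spleens (-2.64 ± 0.15, adjusted p = 2.26e-09), and a second probe set of low level differed by 0.09. Of 32 conjugation and other detoxification enzymes, 29 were higher in liver and none lower, at a median of 2.38. Ugt2b5, which couples glucuronic acid to steroids and drugs, differed by 5.67 ± 0.16, the carboxylesterase Ces3a by 5.32 ± 0.27 and the glutathione transferase Gsta3 by 4.52 ± 0.16.

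**Figure D4:**
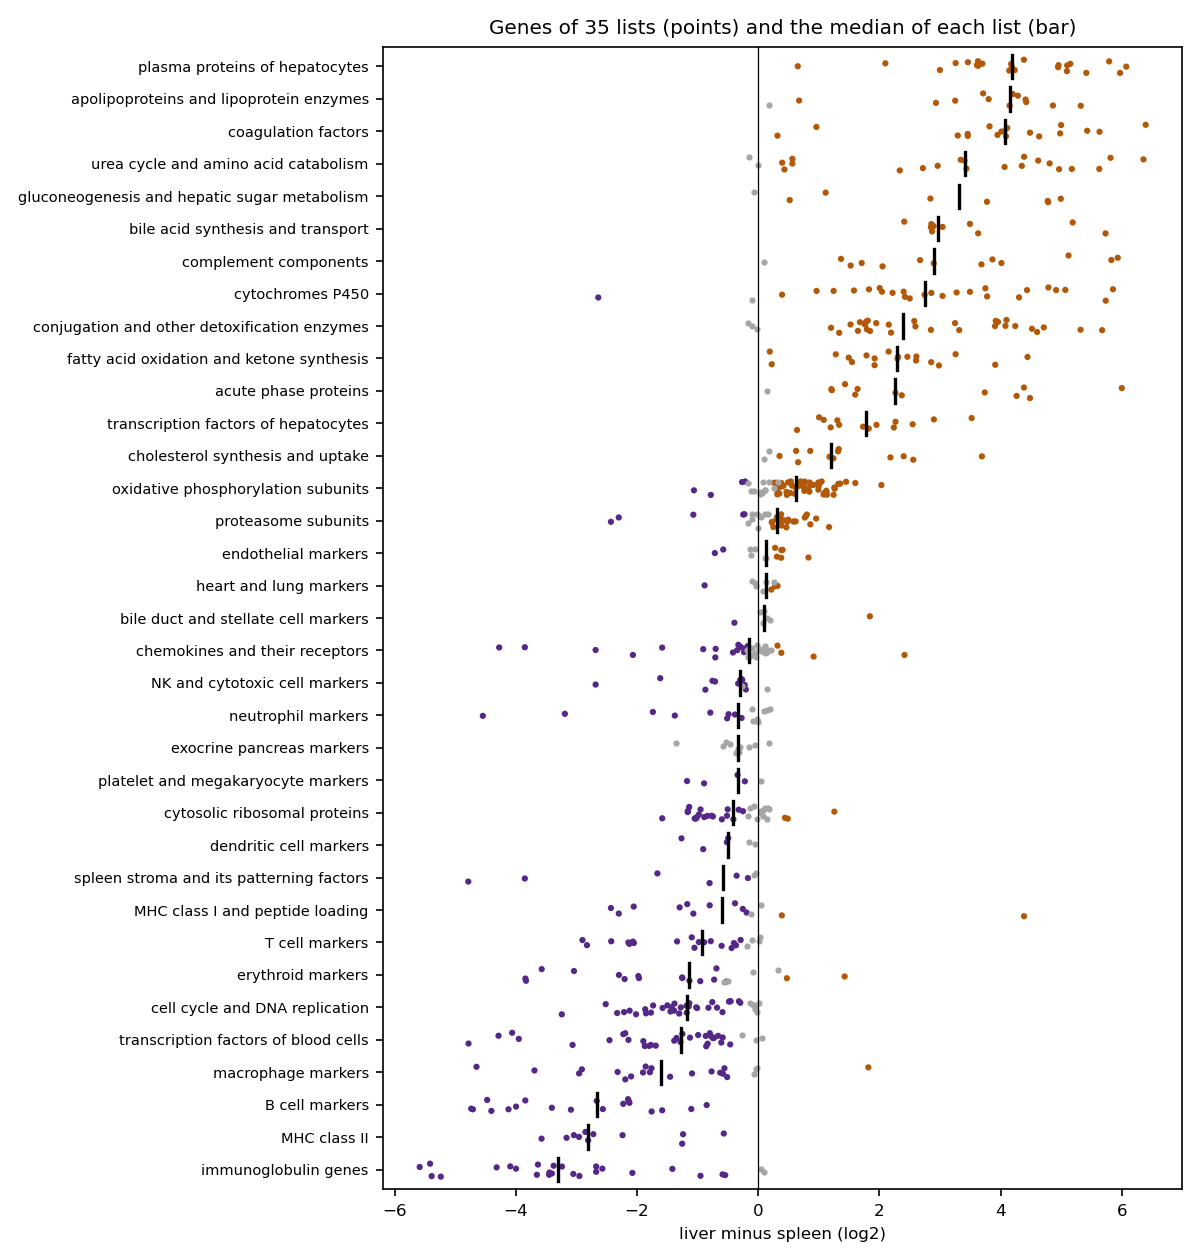
Difference between liver and spleen (liver minus spleen, log2, horizontal axis) of each measured gene of 35 lists (points) with the list median (black bar), ordered by median. Orange points were higher in liver, purple points lower and grey points did not pass the test; medians run from 4.18 for hepatocyte plasma proteins to -3.31 for immunoglobulin genes.

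Transcription factors split by lineage. All 14 hepatocyte factors were higher in liver, at a median of 1.78. Ppara, the receptor that drives fatty acid oxidation, had 11.56, 11.84 and 12.10 in livers, against 8.06, 8.35 and 8.45 in spleens (3.52 ± 0.09). Hnf4a, a nuclear receptor central to hepatocyte identity, had 11.11, 11.53 and 11.75 in livers, against 8.71, 9.01 and 9.14 in spleens (2.55 ± 0.09), and all spleens lay within the range of hearts and lungs (8.64 to 9.26). Hnf4a was not raised in the A/J spleens, which read 9.05, 8.75 and 8.71, against 9.14, 9.05 and 8.98 in C57BL/6J spleens. Foxa3 (2.90 ± 0.09), Nr5a2 (2.27 ± 0.11) and Cebpa (2.24 ± 0.13), further regulators of hepatic genes, were also higher. Of 34 blood cell factors, 31 were lower in liver and none higher, at a median of -1.27. Pou2af1, a coactivator of B cells that works with octamer-binding factors, had 6.27, 6.45 and 6.58 in livers, against 10.79, 11.21 and 11.86 in spleens (-4.78 ± 0.15). Lyl1 of blood progenitors differed by -4.06 ± 0.10, Spic, which red pulp macrophages need, by -3.95 ± 0.17 and Irf8 of myeloid and B cells by -3.06 ± 0.10. Myb, a factor of immature blood cells, differed by -4.29 ± 0.21, while another of its probe sets was higher in liver by 0.32.

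Antibody genes led the genes higher in spleen. Among called probe sets without overlap, the 12 largest were Ighm, Igkv1-133, Ighv14-2, Igkv6-14, Igkv6-23, Jchain, Ighg3, Coch, Pou2af1, Cd24a, Cd72 and Vcam1. They ran from -5.97 to -4.65 log2 units. Ighm, the heavy chain constant region of IgM, had 6.996, 7.15 and 7.28 in livers, against 12.94, 13.17 and 13.25 in spleens. The difference was -5.97 ± 0.07, a 62.9-fold lower level in liver (adjusted p = 1.25e-15). Jchain, which links IgM and IgA into polymers and marks plasma cells, had 7.26, 7.499 and 7.69 in livers, against 11.58, 12.86 and 13.69 in spleens (-5.24 ± 0.23). It read 12.86, 13.32 and 13.69 in A/J spleens and 12.05, 11.58 and 12.86 in C57BL/6J spleens. Of 26 immunoglobulin genes, 24 were lower in liver and none higher, at a median of -3.31. Probe sets named for variable segments such as Igkv6-14 and Igkv6-23 read related segments together, so their values are uncertain as to gene. The 16 probe sets of Ighm did not all move: 9 others were lower by 0.20 or more, and 1, of low level, was higher in liver by 0.22.

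B cell genes were lower in liver without exception. All 19 markers passed, at a median of -2.67. Cd72, a coreceptor that restrains the B cell receptor, had 6.16, 6.38 and 6.54 in livers, against 10.39, 11.10 and 11.66 in spleens (-4.71 ± 0.16). Ms4a1 (CD20) had 8.9995, 9.27 and 9.43 in livers, against 13.32, 13.78 and 13.98 in spleens (-4.47 ± 0.11). Cd52, a small surface glycoprotein of lymphocytes, had 9.48, 9.73 and 9.84 in livers, against 14.03, 14.08 and 14.22 in spleens (-4.40 ± 0.06). Ltb, the lymphotoxin subunit that B cells use to organise follicles, differed by -4.12 ± 0.10. Cd24a, a surface protein of B cells and of red cell precursors, had 8.08, 8.29 and 8.61 in livers, against 12.18, 13.20 and 13.73 in spleens (-4.74 ± 0.16), the A/J spleens being the 3 highest. Cd79a differed by -3.41 ± 0.17, by more in C57BL/6J than in A/J.

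The start regions of 3 B cell genes are shown because they hold words of factors of this lineage. The PU.1 word GAGGAAGT, on either strand, occurred in 8.33% of the 60 genes with a promoter at least 3 log2 units lower in liver, in 2.40% of those at least 3 units higher, in 3.30% of genes on the array and in 3.69% of the table. The octamer ATGCAAAT occurred in 5%, 1.80%, 1.78% and 1.97%. With 60 genes these shares stand for 5 and 3 genes. The GATA word AGATAAG occurred in 0% of the genes lower in liver and in 5.39% of those higher, against 2.49% of genes on the array and 3.5% of the table. The 150 bases before the start follow as above, in build GRCm38.p6 from RefSeq, for Cd72 (chr4:43454627-43454776, minus strand, PU.1 word from -49 to -42), Cd37 (chr7:45238840-45238989, minus strand, PU.1 word from -25 to -18) and Blnk (chr19:40994222-40994371, minus strand, octamer from -130 to -123), with the match in capitals as the reverse complement of the word.
Cd72: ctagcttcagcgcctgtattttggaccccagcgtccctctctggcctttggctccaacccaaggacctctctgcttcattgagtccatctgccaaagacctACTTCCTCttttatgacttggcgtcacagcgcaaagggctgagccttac
Cd37: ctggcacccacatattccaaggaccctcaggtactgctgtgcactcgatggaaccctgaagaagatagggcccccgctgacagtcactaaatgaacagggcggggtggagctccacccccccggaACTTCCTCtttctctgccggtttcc
Blnk: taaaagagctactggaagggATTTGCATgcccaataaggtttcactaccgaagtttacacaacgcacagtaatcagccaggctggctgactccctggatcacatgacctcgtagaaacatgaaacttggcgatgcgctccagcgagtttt
Cd37, a tetraspanin of B cells, differed by -3.09 ± 0.11, and Blnk, an adaptor of B cell receptor signalling, by -2.56 ± 0.12 and -3.61 ± 0.11 by its 2 probe sets; both were picked for their promoters after their values were known.

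T cell, natural killer cell and dendritic cell genes were lower in liver by smaller steps. Of 22 T cell markers, 18 were lower and none higher, at a median of -0.936. Cd3d, a chain of the T cell receptor complex, had 5.79, 6.06 and 6.22 in livers, against 8.44, 8.93 and 9.47 in spleens (-2.90 ± 0.14), and Cd3e, another chain, differed by -1.34 ± 0.11. Satb1, a chromatin organiser of T cells (-2.83 ± 0.12), and Il7r, the receptor for interleukin 7 (-2.43 ± 0.12), were lower as well. Of 13 natural killer and cytotoxic markers 11 were lower, at a median of -0.299, and 7 without the 3 arrays with pancreas transcripts, where 30.2% of all genes were lower. Ccl5, a chemokine of activated lymphocytes, led them (-2.68 ± 0.16), followed by Klrd1, the natural killer receptor CD94 (-1.62 ± 0.22). Of 6 dendritic cell markers 4 were lower, with Itgax (CD11c) at -1.27 ± 0.10. Ptprc, the pan-leukocyte CD45, differed by -2.24 on the probe set chosen to read this gene. Another of its probe sets differed most (-4.11 ± 0.17), with 6.26, 6.39 and 6.47 in livers, against 9.55, 10.67 and 10.79 in spleens. The remaining one differed by -0.01.

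Stroma and chemokines told the organs apart through a few genes. Of 8 genes of spleen stroma and its patterning factors, 6 were lower in liver, at a median of -0.58. Coch, a secreted protein of follicular dendritic cells and inner ear, had 5.26, 5.64 and 5.74 in livers, against 10.10, 10.27 and 10.76 in spleens (-4.78 ± 0.12). No liver lay above the range of hearts and lungs (5.30 to 6.06), and the lowest liver lay below it. Cxcl13, which draws B cells into follicles, had 6.27, 6.55 and 7.11 in livers, against 10.30, 10.46 and 10.65 in spleens (-3.85 ± 0.11). Tcf21 (-1.66 ± 0.15), Wt1 (-0.80 ± 0.09) and Nkx2-5 (-0.36 ± 0.08) are factors needed to form the spleen, and Nkx2-5 did not pass in A/J alone (limma adjusted p = 0.126). Of 37 chemokines and receptors, 15 were lower in liver and 4 higher, at a median of -0.149, and 18 did not pass; in C57BL/6J alone 2 were higher. The homing receptors Cxcr4 (-4.27 ± 0.22) and Ccr7 (-2.07 ± 0.15) were lower. Ccl9, a myeloid chemokine, was higher in liver: 11.16, 12.27 and 13.19 in livers, against 9.57, 9.83 and 9.97 in spleens (2.41 ± 0.28).

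Macrophage genes were mostly lower in liver. Of 22 markers, 18 were lower in liver and 1 higher, at a median of -1.61. Vcam1, an adhesion molecule of red pulp macrophages and stroma, had 8.16, 8.47 and 8.78 in livers, against 12.97, 13.11 and 13.30 in spleens (-4.65 ± 0.10). Lyz2 (lysozyme) differed by -3.69 ± 0.15, Ctss, the cathepsin that trims the invariant chain, by -2.91 ± 0.12 and Marco, a scavenger receptor of the marginal zone, by -2.32 ± 0.25. The exception was Clec4f, a lectin of Kupffer cells, the macrophages of liver. It had 9.90, 10.28 and 10.53 in livers, against 8.32, 8.43 and 8.50 in spleens (1.82 ± 0.09, adjusted p = 4.46e-10), and all spleens lay within the range of hearts and lungs. Of 16 neutrophil markers 9 were lower in liver, at a median of -0.33. S100a8 had 7.36, 7.52 and 7.94 in livers, against 11.17, 12.09 and 12.91 in spleens (-4.54 ± 0.18), and its partner S100a9 differed by -3.19 ± 0.22; together they form calprotectin. Camp and Mpo, granule proteins, differed by -1.38 and -0.79, with overlap between livers and spleens. Mpo did not pass in C57BL/6J alone (limma adjusted p = 0.0608) or without the 4 spleens with liver transcripts (limma adjusted p = 0.0964).

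Antigen presentation by MHC class II was lower in liver throughout, while class I was mixed. All 11 class II genes were lower, at a median of -2.81. H2-Aa had 10.28, 10.61 and 11.67 in livers, against 14.28, 14.36 and 14.38 in spleens (-3.58 ± 0.18), the spleen levels being close to the top of the scale. H2-Eb1 (-3.04 ± 0.09), H2-Ab1 (-2.96 ± 0.16) and the peptide exchange factor H2-DMb1 (-2.85 ± 0.13) followed. Of 14 genes of class I and peptide loading, 10 were lower and 2 higher. H2-Q10, a class I molecule that the mouse liver secretes, had 13.67, 13.80 and 14.07 in livers, against 9.15, 9.41 and 9.75 in spleens (4.39 ± 0.10). Class I genes are close copies, so which of them such a probe set reads is uncertain. Psmb8 and Psmb9, subunits of the immunoproteasome, differed by -2.43 ± 0.15 and -2.302 ± 0.13, and Tap1, the peptide transporter, by -2.05 ± 0.20.

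Red cell genes were lower in liver by far more in A/J than in C57BL/6J. Of 21 erythroid markers, 15 were lower in liver and 2 higher, at a median of -1.14. The median was -1.77 in A/J and -0.364 in C57BL/6J, where 6 markers were higher in liver and 10 lower, beside 20.3% and 28.6% of all genes in that strain alone. Hemgn, a nuclear protein of blood precursors, read 6.25, 5.95 and 5.91 in A/J livers and 5.78, 5.94 and 5.98 in C57BL/6J livers, against 12.13, 12.73 and 12.11 in A/J spleens and 7.96, 6.04 and 7.89 in C57BL/6J spleens. C57BL/6J spleen 2 overlapped the livers. Its difference was -3.84 ± 0.73 over both strains. Slc4a1, the anion exchanger of the red cell membrane, read 13.41, 13.63 and 13.52 in A/J spleens and 11.04, 10.04 and 11.31 in C57BL/6J spleens, against at most 8.86 in a liver (-3.57 ± 0.37). Car2, carbonic anhydrase 2, differed by -3.83 ± 0.41, and Alas2, which starts haem synthesis in red cells, by -1.98 ± 0.24. Cpox, a later enzyme of haem synthesis, ran the other way, higher in liver by 1.43 ± 0.14. Epb42 differed by 0.47 by the probe set with the highest level and by -2.05 by the other, so its direction is unsettled. Of 5 platelet and megakaryocyte markers 4 were lower, 1 of them by at least 2-fold: Vwf (von Willebrand factor) at -1.17 ± 0.12. A second Vwf probe set differed by 0.01.

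Cell cycle and DNA replication genes repeated the pattern of strains. Of 39 genes, 33 were lower in liver and none higher, at a median of -1.18, which was -1.63 in A/J and -0.533 in C57BL/6J. Mki67, the proliferation antigen Ki-67, read 6.07, 6.04 and 5.90 in A/J livers and 5.91, 5.87 and 5.71 in C57BL/6J livers, against 10.21, 10.79 and 10.23 in A/J spleens and 6.77, 6.83 and 7.05 in C57BL/6J spleens (-2.73 ± 0.47). A second probe set differed by 0.01. Hmgb2, a chromatin protein of dividing cells (-3.24 ± 0.25), Stmn1, which destabilises microtubules (-2.52 ± 0.28), Rrm2 of deoxynucleotide synthesis (-2.33 ± 0.39), Birc5 (survivin, -2.21 ± 0.35) and Pcna, the sliding clamp of replication (-2.12 ± 0.25), did not overlap between livers and spleens. In the mean over the list, A/J spleens read 10.10, 10.50 and 10.08 and C57BL/6J spleens 9.15, 9.09 and 9.20, against 8.48 to 8.60 in livers.

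Among 3 lists of genes that for the most part serve all cells, each held members that were higher and members that were lower in liver. Of 69 subunits of oxidative phosphorylation, 53 were higher in liver and 4 lower, at a median of 0.62. Sdha, the catalytic subunit of succinate dehydrogenase, had 10.24, 10.45 and 10.72 in livers, against 7.83, 8.54 and 8.84 in spleens (2.03 ± 0.15). Cox6b2 (-1.06 ± 0.21) and Cox7a2l (-0.78 ± 0.06) were lower. Other probe sets of Cox6b2 differed by -1.06 and 0.17. Of 35 cytosolic ribosomal protein genes, 20 were lower in liver and 3 higher, at a median of -0.41, with Rpl13a at -1.58 ± 0.09 and Rpl32 at 1.26 ± 0.09. Ribosomal proteins have many processed copies in the genome, so the gene read is uncertain. Of 37 proteasome subunits, 23 were higher in liver and 5 lower, at a median of 0.309, and the 5 included the immune subunits Psmb8, Psmb9 and Psmb10 (-1.07 ± 0.11). In A/J alone 9 were higher and 8 lower, beside 28.7% and 30.0% of all genes, and in C57BL/6J alone 24 were higher and 3 lower, so the A/J share was near that of all genes. Without the 3 arrays with pancreas transcripts 15 were higher, beside 24.1% of all genes. Endothelial markers were divided, 6 of 13 higher and 2 lower: Lyve1 of sinusoidal and lymphatic vessels differed by 0.83 ± 0.11 and Eng (endoglin) by -0.72 ± 0.07. Of 7 bile duct and stellate cell markers, Dcn (decorin) differed by 1.84 ± 0.18 and Des (desmin) by -0.39 ± 0.10, which did not pass in A/J alone (limma adjusted p = 0.121). Of 11 heart and lung markers 4 were higher and 1 lower, and the largest of the 5 was -0.89 ± 0.10 for Actc1 (cardiac actin). The name of that probe set marks it as shared by a family, so the gene read is uncertain. A second Actc1 probe set differed by 0.15 and did not pass. None of the 11 was higher without the 4 spleens with liver transcripts, where 20.3% of all genes were higher and 30.5% lower.

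The difference between the organs depended on strain for many genes. The test of that dependence, A/J minus C57BL/6J of the liver-minus-spleen difference, passed for 735 probe sets in the positive direction (5.92%) and 998 in the negative (8.03%). By gene, 6.40% were positive and 9.32% negative. The positive count depended on single arrays: it was 411, 426, 430, 413 and 430 without A/J liver 1, A/J liver 3, C57BL/6J liver 3, A/J spleen 2 and C57BL/6J spleen 1 in turn, 1134 without A/J spleen 1, 1123 without C57BL/6J spleen 3, and 367 without the 3 arrays with pancreas transcripts. In erythroid markers 18 of 21 were negative, in cell cycle genes 24 of 39, in hepatocyte plasma proteins 8 of 23, with 1 positive, and in proteasome subunits 13 of 37, with 1 positive. Immune lists held more positive values: 6 of 11 class II genes (1 negative), 6 of 13 natural killer and cytotoxic markers and 5 of 22 T cell markers (none negative). So did B cell markers (7 of 19, 2 negative) and blood cell factors (8 of 34, 6 negative). The class II median was -2.45 in A/J and -3.15 in C57BL/6J, and the natural killer median -0.237 and -0.641. A negative value stands for a liver level lower, or a spleen level higher, in A/J than in C57BL/6J, and the arrays show which. In Rhag (-3.24 ± 0.17), a red cell membrane channel, A/J spleens read 12.46, 12.76 and 12.61 and C57BL/6J spleens 9.56, 9.10 and 9.46, against 8.65 to 8.91 in livers. Xpo7, a nuclear exporter (-2.92 ± 0.14), Ubac1 of a ubiquitin ligase (-2.46 ± 0.14) and the tetraspanin Tspan33 (-2.65 ± 0.16) had the same shape. Mki67 (-3.35 ± 0.20) and Hemgn (-4.89 ± 0.53) belonged with them.

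In other genes it was the livers that differed between strains. In Fga (-3.55 ± 0.17), the alpha chain of fibrinogen, A/J livers read 10.65, 10.65 and 10.62 and C57BL/6J livers 13.39, 13.48 and 13.49, against 8.47, 8.37 and 8.14 in A/J spleens and 7.46, 7.41 and 7.90 in C57BL/6J spleens. Its difference over both strains was 4.09 ± 0.50. In Asl, the urea cycle lyase (-3.40 ± 0.19), A/J livers read 7.62, 7.41 and 7.57 and C57BL/6J livers 11.23, 11.06 and 10.62, against 6.72 to 7.01 in spleens. Its second probe set gave 0.22 ± 0.16 for the same quantity, so the strain difference was read by 1 of 2 probe sets. Cyp2b9, a cytochrome P450, was the reverse (3.24 ± 0.18): A/J livers read 11.48, 11.30 and 10.93 and C57BL/6J livers 7.87, 7.84 and 7.84, against 7.81 to 8.24 in spleens. It thus differed between the organs in A/J by 3.198 and in C57BL/6J by -0.04. Cyp2c39, which hydroxylates retinoic acid in mice (2.70 ± 0.16), had 13.12, 13.11 and 12.79 in A/J livers and 10.38, 10.17 and 10.26 in C57BL/6J livers, against 9.55 to 9.85 in spleens. Hc, complement C5, whose start region is printed above, had a value of -1.99. An Ighv14-2 probe set of antibody variable segments gave a positive value (4.12 ± 0.18), with 7.95, 7.99 and 8.08 in A/J spleens and 11.73, 12.30 and 12.30 in C57BL/6J spleens, against 5.43 to 5.59 in livers. The other Ighv14-2 probe sets gave 0.71 and 0.11.

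At 2-fold or more, 841 probe sets were higher in liver in A/J and 978 in C57BL/6J, and 767 were shared (91.2% and 78.4%). Lower in liver were 1291 in A/J and 1038 in C57BL/6J, and 823 were shared (63.7% and 79.3%). Each strain alone called 3515 probe sets higher (28.3%) and 3337 lower (26.9%) in A/J, and 2327 higher (18.7%) and 3212 lower (25.9%) in C57BL/6J. The test passed at 2-fold in opposite directions for 3 probe sets, which are named for that reason after their values were seen. Aqp1, the water channel of red cells and vessels, read 10.79, 10.98 and 10.72 in A/J livers and 10.71, 10.64 and 10.71 in C57BL/6J livers, against 12.73, 13.08 and 12.76 in A/J spleens and 9.96, 9.13 and 9.68 in C57BL/6J spleens. Its difference was -2.02 in A/J and 1.097 in C57BL/6J, and a second probe set differed by 0.11 over both strains. Ncoa4, the receptor that delivers ferritin for breakdown, gave -1.098 in A/J and 1.07 in C57BL/6J. One of 4 probe sets of Clcn3, a chloride transporter of endosomes, gave -1.26 in A/J and 1.11 in C57BL/6J.

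**Figure D5:**
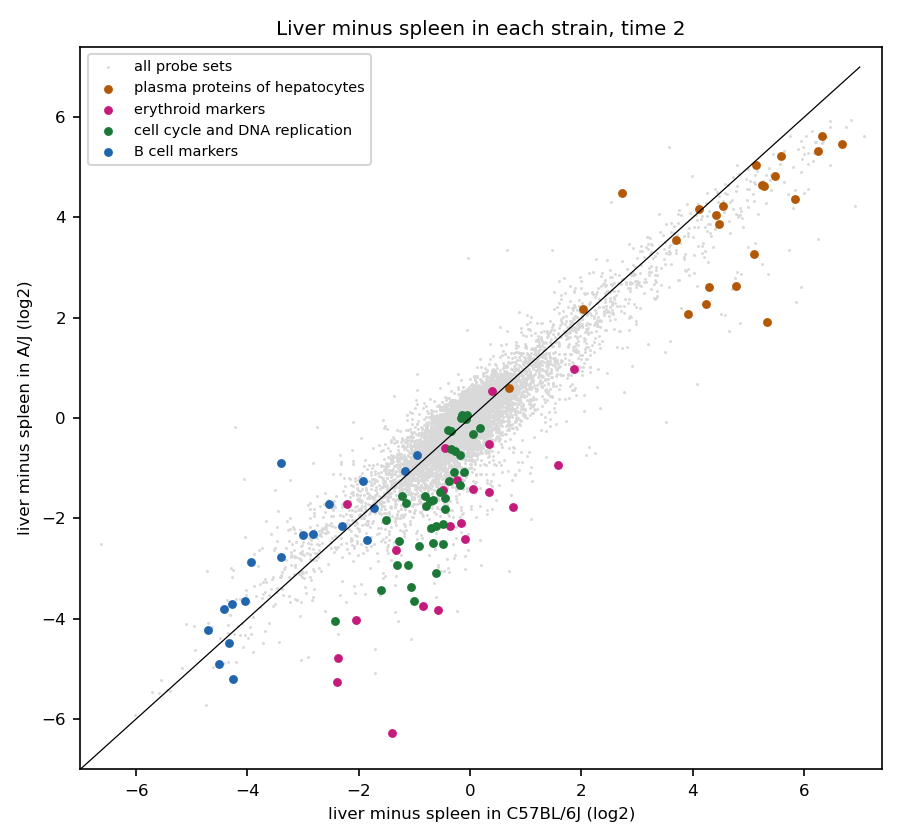
Difference between liver and spleen (liver minus spleen, log2) in A/J (vertical axis) against that in C57BL/6J (horizontal axis) for all probe sets (grey) and the genes of 4 lists (colours), with the line of equal differences. Most erythroid and cell cycle genes lie below the line, as do many plasma protein genes, and B cell markers lie on both sides of it.

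The same contrast at time 1 rests on 12 other arrays, in which the scan file names put livers and spleens in different sets, so tissue and array run cannot be told apart there. It called 4683 probe sets higher in liver (37.7%) and 4075 lower (32.8%). Of the 888 probe sets at least 2-fold higher in liver at time 2, 887 had the same sign at time 1 and 734 were also at least 2-fold higher there (82.7%, and 95.6% of the 768 of time 1). Of the 1125 at least 2-fold lower, all had the same sign and 979 were also at least 2-fold lower (87.0%, and 84.4% of the 1160 of time 1). Alb differed by 3.63 at time 2 and 5.59 at time 1, Bhmt by 6.36 at time 2 and 7.82 at time 1, and Ttr by 4.14 at time 2 and 2.75 at time 1. Among spleen genes, Ighm differed by -5.97 at time 2 and -5.65 at time 1, and Mki67 by -2.73 at time 2 and -3.84 at time 1.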

How the data were processed

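RNA of each organ was read on 1 Affymetrix MG-U74Av2 array per animal. The values were used as the authors deposited them and were taken as log2 from their range. The sources used here do not state the summarisation or normalization behind them. The file holds 12488 probe sets, of which 66 controls were left out. The platform's probe table gave 1 symbol for 10833 of the remaining 12422, several for 396, and did not list 1193. limma 3.58.1 in R 4.3.3 fitted liver minus spleen with strain as a block over 12 arrays, and a second fit held the strain-by-tissue term. P-values were adjusted by Benjamini-Hochberg over all 12422. No filter or floor was applied, and the calculation was tested on simulated data.

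Genes were named by rule: the 12 largest called differences per direction without overlap, up to 5 members of each list plus up to 3 against its majority, the 10 smallest strain-by-tissue p-values, and defining markers. Members and lists were chosen with earlier results of these data known. Other settings were variance trend, array weights, scaling, filters, single strains and leaving out arrays. Promoters came from RefSeq (GRCm38.p6).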

Additional observations from a re-analysis of the deposited data

Results flagged for a closer look

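For 66 probe sets of genes named here the difference between liver and spleen depended on strain by limma's test of that dependence (adjusted p between 5.00e-08 and 0.0472 over all probe sets), 42 in the negative and 24 in the positive direction. The values below are A/J minus C57BL/6J of the liver-minus-spleen difference, in log2 units from 3 arrays a group, and what lies behind them was not tested.

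Among genes of red cells and their precursors the values were -4.89 for Hemgn, -3.61 for the Epb42 probe set that was lower in liver, -3.24 for Rhag, -3.12 for Aqp1, -2.92 for Xpo7, -2.87 for Car2, -2.65 for Tspan33, -2.46 for Ubac1, -2.40 for Slc4a1, -2.17 for Ncoa4, -1.31 for Alas2 and -0.88 for Cpox. For Clcn3 the value was -2.37. Genes of dividing cells gave -3.35 for Mki67, -2.64 for Rrm2, -2.32 for Birc5, -1.83 for Stmn1, -1.63 for Hmgb2 and -1.62 for Pcna. Over the erythroid and cell cycle lists the A/J spleens held the highest mean levels, as the plot of list means by array shows. Aqp1, Xpo7, Tspan33, Ubac1 and Ncoa4 are not in the erythroid list. They were named for their strain dependence in these same values.

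Among liver genes the values were -3.55 for Fga, -3.42 for Alb, -3.40 for Asl, -2.69 for Cyp3a11, -1.99 for Hc, -1.60 for Plg, -1.51 for Ces3a, -1.45 for Bhmt, -1.03 for Fgg, -0.94 for Krt18, -0.91 for Pzp, -0.91 for F2, -0.88 for Cyp4a10, -0.83 for Slc27a2, -0.82 for Mug2, -0.80 for Orm1, -0.78 for Ugt2b5 and -0.61 for Pck1. The A/J spleens were also those with the highest mean of plasma protein genes, and the part of that in these values was not tested. Positive values were 3.24 for Cyp2b9, 2.70 for Cyp2c39, 1.83 for Apcs and 0.72 for Cebpa. In Cyp2b9, Cyp2c39 and Apcs it was mainly the livers that differed between strains.

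Among immune genes the values were 4.12 for 1 Ighv14-2 probe set, 1.89 for Ccl9, 1.40 for Klrd1, 1.12 for Tap1, 1.05 for Cd79a, 1.02 for H2-Ab1, 0.96 for Ccl5, 0.79 for H2-DMb1, 0.78 for Ccr7, 0.74 for S100a6, 0.65 for Itgb7, 0.62 for Cd37, 0.61 for Ltb, 0.59 for Psmb10, 0.54 for 1 Blnk probe set, 0.51 for Cd3e, 0.51 for Itgax and 0.46 for Itgb2. Negative ones were -1.03 for Spic, -0.95 for Cd24a, -0.90 for Mpo and -0.47 for Vcam1. The remaining values were 0.82 for Cyp1b1, 0.82 for Tcf21 and -1.30 for Cox6b2.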

How the results depend on the processing

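Of 25 other settings tried for the 197 probe sets of the named genes rule, direction turned for 2 genes: Cyp2b9 differed by -0.0397 in C57BL/6J alone, and without the 4 spleens with liver transcripts Cyp2b9 differed by -0.0513 and Tnnt2 by -0.0553. In 96 other cases a named gene kept its direction but no longer passed: 56 against a 2-fold difference, 11 in C57BL/6J alone (Mpo, Xpo7, Ubac1 and Tspan33 among them), 9 without those spleens, 3 in A/J alone (Nkx2-5, Gp5 and Des) and at most 2 under any other setting. The setting without these spleens, and that without the 3 arrays with pancreas transcripts, were chosen after seeing the data. A test against a 2-fold difference in place of 0 left 671 probe sets higher and 682 lower in liver, as the stricter question implies. Testing only probe sets above the median level left 2179 higher. For the strain-by-tissue counts, array weights gave 2026 positive and 1748 negative, all 24 arrays of time 2 in the fit gave 1151 positive, and leaving out the 3 arrays with pancreas transcripts gave 367 positive. Leaving out 1 array at a time gave 2940 to 3443 probe sets higher and 3396 to 3524 lower in liver, 882 to 909 and 1087 to 1162 at 2-fold, and 411 to 1134 positive and 677 to 1317 negative by strain. Deviations from the group mean in livers and spleens of the same replicate number had r from -0.337 to 0.287 over 6 pairs. With 3 arrays a group these values cannot show whether the numbers pair the samples. With the replicate block the counts were 2971 and 3365, and 1081 positive and 1181 negative by strain. The median difference of all probe sets was 0.0329 after quantile normalization and 0.0421 after median centring, against 0.0243 as deposited. Some named genes had a further probe set that did not pass, among them Lcat (0.01), Cd3d (0.02), Stmn1 (0.15), Tap1 (0.07), Lyz2 (-0.23), Mpo (-0.09) and Igkv6-14 (-0.03). How far low levels lie above background was not tested.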

Other observations

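Some gene families, grouped by the start of their symbols and picked after the values were seen, hold genes not yet described. Against the shares of all genes given above (27.2% higher in liver and 31.6% lower), 60 of 151 solute carriers were higher in liver and 33 lower. Slc38a4, which carries amino acids into hepatocytes, had a lowest, median and highest level of 13.64, 13.72 and 13.99 in livers, against 8.61, 8.74 and 9.16 in spleens, a difference of 4.99 ± 0.10 (SE). Slc25a4, the mitochondrial ADP/ATP carrier typical of heart and muscle, differed by -2.81 ± 0.10, and Slc44a2, a choline transporter, by -3.01 ± 0.09. Of 33 keratins 8 were higher, near the share of all genes, and 1 lower. The pair of simple epithelia, Krt18 (3.44 ± 0.16) and Krt8 (1.26 ± 0.13), stood above the rest. Krt18 had 10.19, 10.79 and 11.29 in livers, against 7.11, 7.27 and 7.53 in spleens, and its second probe set differed by 0.09. Of 31 collagens 7 were higher and 9 lower, both near the shares of all genes. Col18a1, the precursor of endostatin, had 12.86, 12.95 and 13.18 in livers, against 10.27, 10.41 and 10.66 in spleens (2.52 ± 0.08), and 3 of its other 4 probe sets differed by 2.40 to 3.66. Col4a1 of basement membranes differed by -1.45 ± 0.11.

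Protease and leukocyte families held genes on both sides, and their counts stand beside 27.2% higher and 31.6% lower among all genes. Interleukins and S100 proteins lay near that share for genes lower in liver, and cathepsins for genes higher. Of 13 cathepsins, 4 were higher in liver and 7 lower. Ctsl had 12.73, 13.32 and 13.50 in livers, against 10.35, 10.48 and 10.75 in spleens (2.71 ± 0.11), while Ctss, the cathepsin of antigen-presenting cells, differed by -2.91 ± 0.12. Of 20 integrins 2 were higher and 9 lower, with the leukocyte chains Itgb2 (-2.62 ± 0.09) and Itgb7 (-1.71 ± 0.12) lowest in liver. Of 11 S100 calcium-binding proteins 2 were higher and 4 lower, S100a6 among the lower ones at -4.004 ± 0.15. Of 45 interleukins and their receptors 7 were higher and 14 lower, with Il16 at -2.96 ± 0.11. Of 8 GTPases induced by interferon 1 was higher in liver and 4 lower, at a median of -0.392. The higher one, Iigp1, had 12.72, 12.97 and 13.25 in livers against 10.16, 10.67 and 11.44 in spleens (2.32 ± 0.15). Acss1, the mitochondrial acetyl-CoA synthetase, differed by -3.40 ± 0.09, the reverse of most acyl-CoA enzymes, of which 16 of 19 were higher and 2 lower.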
